A study of Mus musculus with 6 samples.

Results

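The 45 genes described here carry the interferon response and the presentation of antigen by class I molecules, and they were chosen by gene symbol for their role, from receptor to antigen presentation. Of these, 43 have a row among the 16880 genes of the expression table, and the antiviral GTPases Mx1 and Mx2 have none. RNA was sequenced from 6 libraries of ATDC5, named in the labels as a mouse chondrogenic cell line, whereas the paper speaks of chondrocytes. In 3 libraries the cells received 10 ng/mL IL-1β, an inflammatory cytokine, and in the other 3 they received the same IL-1β together with 10 μmol/L NP-G2-044, a small molecule inhibitor of the actin-bundling protein FSCN1. Treatment lasted 24 h according to the methods, which describe biological replicates. The titles of the inhibitor-treated samples name NP-G2-044, while their treatment label reads NP-G2-047. Both groups thus carry IL-1β, and a DMSO group was not analysed here, so the values bear on the inhibitor and not on IL-1β itself.

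Interferons are secreted proteins that warn cells of infection. Type I interferons bind the receptor chains Ifnar1 and Ifnar2, and interferon-γ binds Ifngr1 and Ifngr2; both receptors signal through Janus kinases to STAT and IRF transcription factors, which switch on antiviral genes. The same factors raise the machinery that cuts proteins into peptides, carries them into the endoplasmic reticulum through Tap1 and Tap2, and loads them onto class I molecules, made of an H2 heavy chain and the light chain B2m, for display at the cell surface. In joint cells interferon-responsive genes are also known to respond to inflammatory cytokines.

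The inhibitor-treated libraries had lower levels of guanylate-binding proteins, RNA sensors, the transcription factor Irf1 and the peptide transporter, and higher levels of the class I heavy chains H2-K1 and H2-D1, the kinase Jak2 and the antiviral factor Bst2. Of the 43 genes, 36 had enough reads to be tested and 7 did not. At an adjusted p below 0.05 (quasi-likelihood test of edgeR, adjusted by Benjamini-Hochberg over the 11983 genes tested), 9 of the 36 rose, 20 fell and 7 did not pass. The same cutoff was passed by 80% of all tested genes, 40.2% upwards and 39.8% downwards, so that passing it is common in this comparison. The common biological coefficient of variation, the spread between replicates beyond counting noise, was only 2.33%. The standard errors and p-values rest on this small spread, and how independent the replicates were was not tested. With a log2 fold change above 1 in size as a second cutoff, 1 gene rose (Bst2) and 10 fell (Ifih1, Ddx58, Irf1, Ifit2, Ifitm2, Gbp2, Gbp3, Parp14, Xaf1 and Tap1), beside 6.48% rising and 10.1% falling among all tested genes. Past both cutoffs were 30.6% of the tested genes of the list and 16.6% of all tested genes. The median log2 fold change was −0.37 over the 36 genes, with a range from −3.61 to 1.26, and 0.00 over all tested genes. The TPM of the groups did not overlap for 29 of the 36 genes, a share of 80.6% beside 79.4% of all tested genes. TPM is the deposited level scaled for transcript length and library depth, and log2 fold changes, from read counts, are those of the inhibitor group over the IL-1β group. In bulk RNA, fewer cells of a type and less RNA per cell cannot be told apart.

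**Figure D1:**
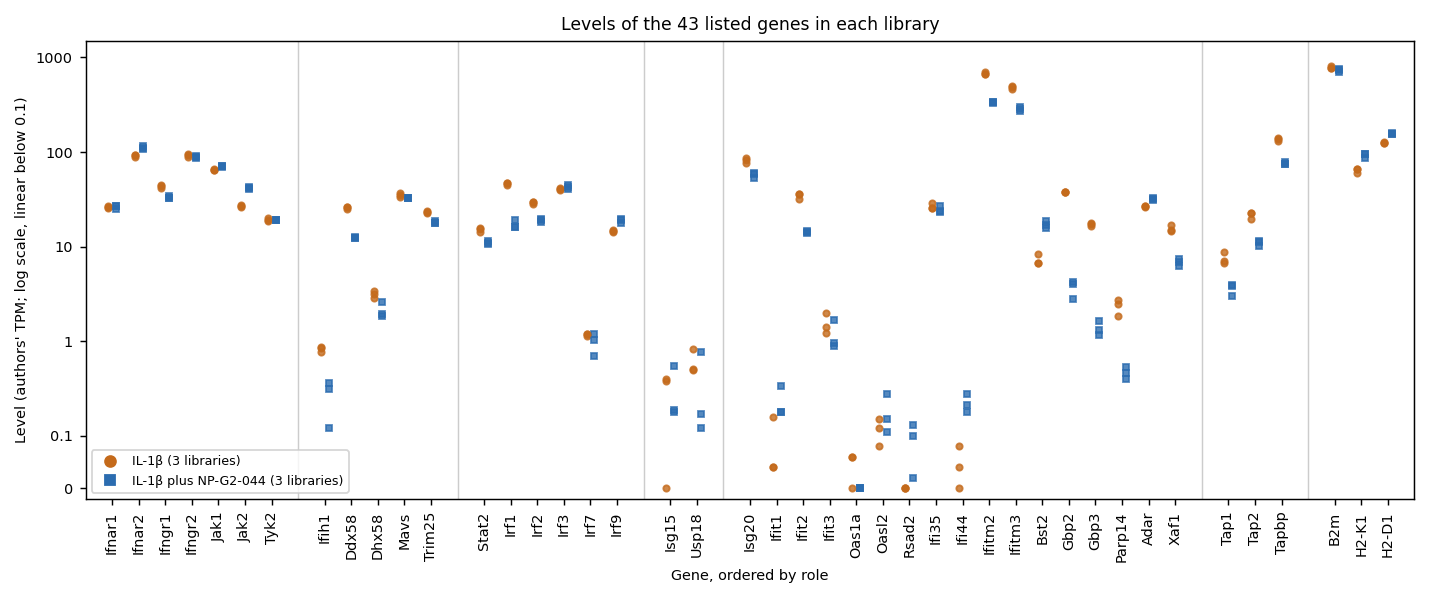
Level of each of the 43 listed genes in each library, in TPM on a log scale that is linear below 0.1, with circles for the 3 IL-1β libraries and squares for the 3 IL-1β plus NP-G2-044 libraries and with the genes ordered by role. B2m, Ifitm2 and Ifitm3 stand highest in both groups, Gbp2 and Gbp3 drop the most among the tested genes, and Isg15, Ifit1, Oas1a, Oasl2, Rsad2 and Ifi44 stay under 1 TPM in all libraries.

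The levels spanned several orders of magnitude. In both groups B2m was highest, followed by Ifitm2 and Ifitm3, and the libraries of these 3 genes did not overlap with each other within a group. Next came Tapbp and H2-D1 with IL-1β, and H2-D1 and Ifnar2 with IL-1β plus NP-G2-044. Ifngr2 and Ifnar2 did not differ beyond their spread in the IL-1β group, nor did H2-K1 and Ifngr2 in the inhibitor group. Several genes changed places: Gbp2 was at rank 14 of 43 with IL-1β and at rank 29 with the inhibitor, Irf1 went from 11 to 23, and Bst2 went from 31 to 22.

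Interferon-responsive promoters are known for the interferon-stimulated response element, bound by IRF factors, and for the GAS element of genes that answer interferon-γ, while class I promoters carry a κB element. The promoter of 39 of the 43 genes was found in RefSeq (assembly GRCm38.p6), as windows from 250 bases before to 50 bases after each start, 48 windows in all. Both strands were searched for the element's core (GAAA, any 2 bases, GAAA), for GAS (TTC, any 3 bases, GAA) and for κB letters (GGG, any 2 bases, then TTTCC or TTCCC). The core was present for 15 of the 39 genes (38.5%), against 3.99% of all genes with a promoter and 3.55% of the tested genes. GAS letters were present for 11 of the 39 genes (28.2%, against 9.55% of all) and κB letters for 5 (12.8%, against 3.73%). Among the genes that fell past both cutoffs, 5 of the 9 with a promoter held the core (Ddx58, Gbp2, Gbp3, Ifih1 and Ifitm2). Among the 9 genes that rose, Bst2 did, and among the 6 with too few reads and a promoter, 4 did (Isg15, Ifit1, Oas1a and Rsad2). The 250 bases before the start are printed below for the genes at the extremes of the comparison, read 5′ to 3′ along the gene's strand, with the matched letters in capitals. Gbp2 and Gbp3 fell most, Irf1 fell most among the factors, Bst2 rose past both cutoffs, Isg15 stayed near 0 reads, and H2-K1 and H2-D1 are the heavy chains that rose.
Gbp2, chr3:142620413-142620662, plus strand, core 59 bases before the start: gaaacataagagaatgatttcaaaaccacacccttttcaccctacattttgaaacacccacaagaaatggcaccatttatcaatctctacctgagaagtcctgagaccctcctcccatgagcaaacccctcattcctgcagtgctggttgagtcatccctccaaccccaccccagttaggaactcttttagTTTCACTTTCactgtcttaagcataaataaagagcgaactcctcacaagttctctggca
Gbp3, chr3:142559794-142560043, plus strand, overlapping cores 45 and 39 bases before the start: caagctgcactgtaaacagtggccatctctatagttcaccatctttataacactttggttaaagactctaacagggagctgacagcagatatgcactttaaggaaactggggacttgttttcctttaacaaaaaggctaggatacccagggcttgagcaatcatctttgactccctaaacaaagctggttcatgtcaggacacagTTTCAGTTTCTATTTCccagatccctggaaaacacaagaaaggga
Irf1, chr11:53769764-53770013, plus strand, GAS 90 bases before the start: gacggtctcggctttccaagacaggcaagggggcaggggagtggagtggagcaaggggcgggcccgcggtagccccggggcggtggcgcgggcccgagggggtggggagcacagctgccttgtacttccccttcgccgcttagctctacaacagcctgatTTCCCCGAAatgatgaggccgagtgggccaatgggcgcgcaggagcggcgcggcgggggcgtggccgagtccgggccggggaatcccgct
Bst2, chr8:71537473-71537722, minus strand, overlapping cores 130 and 124 bases before the start and a GAS match at 136 that overlaps them: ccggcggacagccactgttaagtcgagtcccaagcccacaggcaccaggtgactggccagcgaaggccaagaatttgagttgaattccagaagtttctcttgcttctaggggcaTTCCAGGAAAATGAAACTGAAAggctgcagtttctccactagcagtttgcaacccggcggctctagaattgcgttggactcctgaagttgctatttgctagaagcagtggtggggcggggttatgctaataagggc
Isg15, chr4:156200819-156201068, minus strand, overlapping cores 78, 72 and 66 bases before the start: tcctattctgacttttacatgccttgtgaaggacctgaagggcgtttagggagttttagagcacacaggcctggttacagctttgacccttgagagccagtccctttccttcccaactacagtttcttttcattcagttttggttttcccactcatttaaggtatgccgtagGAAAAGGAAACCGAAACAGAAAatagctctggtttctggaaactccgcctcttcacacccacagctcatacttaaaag
H2-K1, chr17:34000334-34000583, minus strand, κB letters 125 bases before the start: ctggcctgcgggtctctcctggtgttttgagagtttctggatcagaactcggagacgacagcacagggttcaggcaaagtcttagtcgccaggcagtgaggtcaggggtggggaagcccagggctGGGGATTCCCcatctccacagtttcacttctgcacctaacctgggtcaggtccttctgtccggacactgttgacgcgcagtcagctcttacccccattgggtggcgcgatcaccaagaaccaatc
H2-D1, chr17:35262844-35263093, plus strand, κB letters 171 bases before the start: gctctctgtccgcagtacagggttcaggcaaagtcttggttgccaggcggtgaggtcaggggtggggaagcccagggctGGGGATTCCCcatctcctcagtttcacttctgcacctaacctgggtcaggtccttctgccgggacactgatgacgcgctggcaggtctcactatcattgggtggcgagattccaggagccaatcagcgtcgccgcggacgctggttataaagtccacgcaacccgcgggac
Gbp3, Irf1 and H2-K1 each have a further window in RefSeq that is not printed, and that of H2-K1 holds the same κB letters. A match of letters is a description and not a bound site. Only exact matches were counted, so an element that departs from the core by a base was missed. Both H2-K1 and H2-D1 hold tttcacttc after the κB letters, close to the core as read on the other strand (TTTC, any 2 bases, TTTC). The counts above therefore do not show that these heavy chains lack the element. The letters thus occurred in genes that fell, in a gene that rose and in genes with too few reads to be tested.

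The IL-1β libraries held 16615824 to 16878164 reads and the inhibitor-treated ones 17529844 to 17735860, and no library stood apart from its group. Among the defining markers of chondrocytes, 9 of 14 had a row, Matn1 was at 0 in every library, and 3 (Sox9, Sox5 and Col11a2) reached 1 TPM. The sums were 22.2 to 23.1 TPM in the IL-1β group and 17.3 to 18.0 TPM in the inhibitor group. Within them Sox9 was higher with the inhibitor (means of 6.44 and 11.4 TPM). Sox5 (10.3 and 2.27 TPM) and Col11a2 (5.01 and 3.43 TPM) were lower. Col2a1 was near 0, with 32 and 6 pooled reads. Fibroblast markers summed to 1115 to 1161 TPM and to 342 to 356 TPM, nearly all of it Col1a2 (means of 1098 and 331 TPM), while Pdgfra was higher with the inhibitor (2.36 and 8.69 TPM) and Thy1 was at 0. Leukocyte and macrophage markers (8 of 11 with a row, 2 at 1 TPM or more) summed to 23.8 to 24.9 TPM in the IL-1β group and to 129 to 140 TPM in the inhibitor group, where Cd68, a lysosomal protein, made up most of it (mean 12.4 and 129.9 TPM). Other markers of this list were lower with the inhibitor, Cd14 with means of 11.4 and 4.89 TPM, Csf1r with 25 and 17 pooled reads and Lyz2 with 9 and 3, and the leukocyte marker Ptprc was at 0 in every library. Endothelial and epithelial markers summed to at most 0.55 and 1.25 TPM, and Epcam was at 0. Reads of genes that share exon sequence with a neighbour could have been counted for either, which concerns Ifnar2 (315 bases), Ifitm2 (268), Tapbp (149), Irf9 (123) and Parp14 (110) on the same strand. On the opposite strand it concerns Adar (1365), Tapbp (904), Tyk2 (554), Tap2 (533), Ifi35 (290), Tap1 (212), Dhx58 (141), Irf1 (135), Usp18 (124) and Irf3 (88).

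The receptors and kinases at the entrance of the pathway moved little, apart from Jak2. Jak2, the kinase that is bound to the interferon-γ receptor, had 26.6, 27.7 and 26.3 TPM in the IL-1β libraries and 41.7, 40.3 and 42.7 TPM in the inhibitor-treated libraries. All treated libraries were above all IL-1β libraries, and Jak2 rose with a log2 fold change of 0.66 ± 0.0365 (SE, edgeR adjusted p = 8.93e-23). Ifngr1, the chain that binds interferon-γ, moved the other way, from 43.7 ± 1.48 to 33.2 ± 1.15 TPM (SD, n = 3 each), which is a log2 fold change of −0.36 (edgeR adjusted p = 1.7e-09). Its partner Ifngr2 was at 93.2 ± 3.27 and 89.1 ± 2.06 TPM and did not pass (edgeR adjusted p = 0.389). Jak1, shared by both receptors, rose by a log2 fold change of 0.14 (edgeR adjusted p = 2.4e-05). The type I receptor chain Ifnar1 (log2 fold change 0.02) and the kinase Tyk2 (0.01) did not pass. Ifnar2 passed narrowly, with a log2 fold change of 0.10 ± 0.0409 (SE, edgeR adjusted p = 0.0236) from reads. Its deposited TPM, which also divide by transcript length, differed by 0.28 on the log2 scale, and the call was lost without IL-1β replicate 2, without IL-1β replicate 3 or without inhibitor replicate 3 (adjusted p = 0.141, 0.0575 and 0.121), with DESeq2 (0.106) and with a filter of 10 CPM in 3 libraries (0.0956).

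Lower levels at the adjusted p were found for 4 of the 5 genes that sense viral RNA or pass the signal on. Their share of 80% stands beside 80% of all tested genes passing in either direction and 39.8% passing downwards. Past both cutoffs 2 fell (40%), beside 10.1% of all tested genes. Ddx58, which encodes the sensor RIG-I, had 24.9, 26.0 and 26.1 TPM with IL-1β and 12.4, 12.7 and 12.4 TPM with the inhibitor. The groups were well apart, and the log2 fold change was −1.01 ± 0.0438 (SE, edgeR adjusted p = 2.51e-27). That lies at the fold cutoff, and it was −0.99 without inhibitor replicate 1. Ifih1, which encodes the sensor MDA5, was a low gene with 48, 47 and 43 reads with IL-1β and 21, 7 and 18 with the inhibitor. It fell by 1.65 ± 0.244 on the log2 scale (SE, edgeR adjusted p = 3.59e-08), and inhibitor replicate 2 was the lowest library. On the inhibitor-treated libraries alone Ifih1 would not have had enough reads to be tested, so its fall is not independent of that filter. On the scale of log2(TPM + 1), which compresses low levels, the difference was −0.54 and under the fold cutoff. Dhx58, encoding LGP2, the third member of this family of helicases, had a log2 fold change of −0.53 (edgeR adjusted p = 0.00222), and Trim25, a ubiquitin ligase of the RIG-I pathway, one of −0.32 (edgeR adjusted p = 3.38e-10). Mavs, the mitochondrial adaptor on which these sensors act, was at 35.3 ± 1.56 and 32.7 ± 0.187 TPM (SD, n = 3 each) and did not pass (log2 fold change −0.07, edgeR adjusted p = 0.113). Its TPM were lower in every treated library, and it passed with a filter of 10 CPM in 3 libraries (edgeR adjusted p = 0.0292) and with limma on TPM.

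Among the transcription factors the changes went in both directions. Irf1, an activator of class I and guanylate-binding protein genes, had 44.4, 47.4 and 47.3 TPM with IL-1β. With the inhibitor it had 16.3, 18.9 and 16.0 TPM, so that the groups were far apart. Irf1 fell by 1.41 ± 0.0563 on the log2 scale (SE, edgeR adjusted p = 4.93e-29). Irf2, which binds the same DNA element and can act against Irf1, had a log2 fold change of −0.57 (edgeR adjusted p = 1.09e-13), and Stat2, a subunit of the factor that answers type I interferon, one of −0.41 (edgeR adjusted p = 2.12e-09). Irf9, the DNA-binding partner of Stat2, rose instead from 14.7 ± 0.337 to 18.9 ± 0.825 TPM (SD, n = 3 each), which is a log2 fold change of 0.40 (edgeR adjusted p = 2.63e-07). Irf7, the amplifier of type I interferon induction, was near 1 TPM in both groups and did not pass (edgeR adjusted p = 0.398). Irf3, which is activated by phosphorylation, passed with a log2 fold change of 0.12 (edgeR adjusted p = 0.0196), but its TPM overlapped between the groups (39.9 to 41.8 and 40.8 to 44.6). The call was lost without inhibitor replicate 2 (adjusted p = 0.132), with DESeq2 (0.1002) and with a filter of 10 CPM in 3 libraries (0.0674). It was also lost with limma on log2(TPM + 1) (0.172) and on log2(TPM + 0.1).

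**Figure D2:**
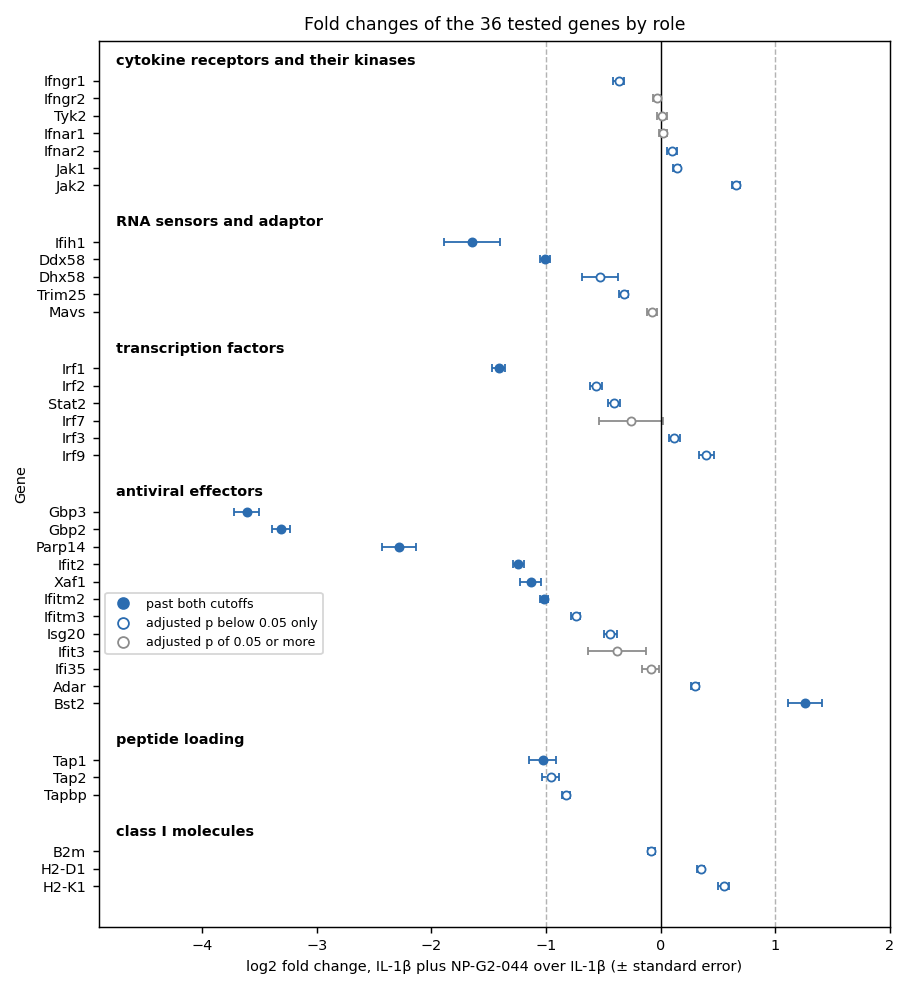
Log2 fold change of each of the 36 tested genes, inhibitor group over IL-1β group, with bars for the standard error, grouped by role; filled points are past both cutoffs, open blue points pass the adjusted p only, grey points do not pass, and dashed lines mark log2 fold changes of −1 and 1. Gbp3 at −3.61 and Gbp2 at −3.31 lie farthest to the left, Bst2 at 1.26 farthest to the right, and the heavy chains H2-D1 and H2-K1 lie right of 0 while Tap1, Tap2 and Tapbp lie left of it.

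Many of the genes best known as induced by type I interferon were close to silent in both groups. Isg15, a ubiquitin-like protein that is attached to other proteins, had 2, 2 and 0 reads with IL-1β and 1, 3 and 1 with the inhibitor, a ratio of pooled reads of 1.19 with an exact 95% interval of 0.256 to 5.99. Usp18, the protease that removes it, had 29 and 18 pooled reads (ratio 0.590, interval 0.308 to 1.10). These intervals are binomial (Clopper-Pearson), are scaled by library totals and cover counting error only, and neither gene shows a difference detectable at this depth. Oas1a, which makes the activator of RNase L, had 2 and 0 pooled reads, too few for a ratio, and Oasl2, of the same family, had 9 and 15 (ratio 1.58, interval 0.649 to 4.10). The remaining 3 low genes had more reads with the inhibitor. Ifit1, which binds viral RNA ends, had 4, 1 and 1 reads against 9, 5 and 5 (ratio 3.01, interval 1.16 to 9.20). Ifi44, a cytoplasmic protein of the response, had 1, 0 and 2 against 8, 5 and 6 (ratio 6.02, interval 1.77 to 31.8). Rsad2, which encodes the antiviral enzyme viperin, had 0 in each IL-1β library against 5, 4 and 1, at least 3.17-fold higher with a floor of 3 reads over the group. In each of these 3 genes every inhibitor-treated library was above every IL-1β library, at levels of at most 0.34 TPM. In a fit without the low-count filter they had edgeR adjusted p-values of 0.0404, 0.00395 and 0.00328, that of Ifit1 close to the cutoff. For strongly changed genes that fit gave far smaller p-values than the main fit. Jak2, for example, had an edgeR adjusted p of 5.83e-70 in place of 8.93e-23. The p-values of these fits are therefore not on the same footing.

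Of the 12 tested antiviral effectors, 8 fell, 2 rose and 2 did not pass at the adjusted p. The share that passed, 83.3%, is near the 80% of all tested genes. Past both cutoffs 6 fell and 1 rose (58.3%, beside 16.6% of all tested genes). The largest changes of the list were those of the guanylate-binding proteins, GTPases that are best known as targets of interferon-γ and that attack the vacuoles of intracellular pathogens. Gbp2 had 37.4, 37.8 and 37.4 TPM with IL-1β and 4.04, 4.23 and 2.79 TPM with the inhibitor. Gbp3 had 17.6, 17.3 and 16.4 TPM with IL-1β and 1.16, 1.32 and 1.62 TPM with the inhibitor. For both genes the lowest IL-1β library was several-fold above the highest treated library. The log2 fold change was −3.31 ± 0.0799 for Gbp2 (SE, edgeR adjusted p = 2.13e-37) and −3.61 ± 0.109 for Gbp3 (SE, edgeR adjusted p = 1.93e-34), or 9.94-fold and 12.2-fold lower. Both lie on mouse chromosome 3 (mm10), where Gbp5, Gbp7, Gbp3 and Gbp2 follow each other between bases 142496934 and 142638008. The copies are similar in sequence and the counting could have split reads among them, so each gene's own value is less certain than their sum. The 8 Gbp genes of the list and the wider lists that had a row (Gbp2 to Gbp9) summed to 58.3, 58.3 and 56.9 TPM with IL-1β and to 5.53, 6.05 and 4.76 TPM with the inhibitor. A further copy outside these lists, Gbp2b, named after its values were seen, had 25.7, 28.2 and 26.1 TPM against 2.55, 3.18 and 2.70 TPM.

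Other effectors fell less. Parp14, an ADP-ribosyltransferase, had 1.85, 2.73 and 2.46 TPM with IL-1β and 0.46, 0.54 and 0.40 TPM with the inhibitor. The groups did not overlap, and the log2 fold change was −2.29 ± 0.147 (SE, edgeR adjusted p = 9.16e-18), although on the scale of log2(TPM + 1) it was −1.18. Ifit2, a protein that binds viral RNA and stops its translation, had 32.2, 35.7 and 35.7 TPM against 14.0, 14.2 and 14.6 TPM. It fell by 1.24 ± 0.0462 on the log2 scale (SE, edgeR adjusted p = 2.07e-30). Its neighbour on chromosome 19, Ifit3, is a near copy of Ifit3b and had only 83 and 67 pooled reads; its log2 fold change was −0.38 (edgeR adjusted p = 0.166), and without inhibitor replicate 1 it was −0.73 and past the cutoff (adjusted p = 0.0209). The 3 Ifit genes of the list thus differed in level within each group, and the most abundant, Ifit2, is the 1 of them that fell past both cutoffs. Outside the list, Ifit1bl1 of the same cluster, named after its values were seen, also fell past both. It had 90 and 42 pooled reads and a log2 fold change of −1.16 (edgeR adjusted p = 5.7e-05). Xaf1, a protein that favours apoptosis, had 16.8, 14.5 and 15.1 TPM against 7.37, 6.95 and 6.22 TPM, with a log2 fold change of −1.13 ± 0.0899 (SE, edgeR adjusted p = 1.33e-16). For Ifit2 and Xaf1 the groups did not overlap.

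The membrane proteins Ifitm2 and Ifitm3, which block the fusion of viruses with the cell, were the most abundant effectors. Ifitm2 had 671, 661 and 702 TPM with IL-1β and 334 TPM in each of the 3 inhibitor-treated libraries. Its log2 fold change of −1.02 ± 0.0349 (SE, edgeR adjusted p = 5.5e-32) lies at the fold cutoff. Ifitm3 had 484, 462 and 497 TPM against 285, 271 and 301 TPM, with a log2 fold change of −0.74 ± 0.0394 (SE, edgeR adjusted p = 3.46e-23). Both genes were lower in every treated library, and their close similarity makes the division of reads between them uncertain. Isg20, an exonuclease that degrades RNA, went from 82.1 ± 5.53 to 57.2 ± 3.86 TPM (SD, n = 3 each), which is a log2 fold change of −0.44 (edgeR adjusted p = 2.8e-09). Ifi35 was at 26.7 ± 1.80 and 24.6 ± 2.21 TPM and did not pass (edgeR adjusted p = 0.296).

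Bst2 and Adar were the effectors that rose. Bst2, or tetherin, holds budding virus particles at the cell surface. It had 8.33, 6.79 and 6.69 TPM with IL-1β and 15.7, 17.1 and 18.9 TPM with the inhibitor, from 48, 38 and 38 reads against 94, 104 and 115. Every treated library was above every IL-1β library, and the log2 fold change was 1.26 ± 0.150 (SE, edgeR adjusted p = 8.81e-11). Adar, the enzyme that edits double-stranded RNA, rose from 26.7 ± 0.410 to 32.0 ± 0.685 TPM (SD, n = 3 each), which is a log2 fold change of 0.30 (edgeR adjusted p = 6.14e-11).

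Within the class I pathway the 3 genes that load peptides fell while the heavy chains H2-K1 and H2-D1 rose and the related chains H2-T22 and H2-Q4 fell. Tap1, a subunit of the peptide transporter, had 8.83, 6.70 and 7.02 TPM with IL-1β and 3.0, 3.84 and 3.97 TPM with the inhibitor. Its log2 fold change was −1.03 ± 0.117 (SE, edgeR adjusted p = 1.21e-09), and it was −0.89 without IL-1β replicate 1, the highest library. Tap2, the other subunit, had 22.8, 22.8 and 19.5 TPM against 11.4, 10.1 and 11.3 TPM, with a log2 fold change of −0.96 ± 0.0719 (SE, edgeR adjusted p = 4.01e-17). Tapbp, or tapasin, which holds the class I molecule at the transporter, had 137, 142 and 132 TPM against 75.5, 77.5 and 74.4 TPM, with a log2 fold change of −0.82 ± 0.0323 (SE, edgeR adjusted p = 2.19e-29). All 3 genes were separated between the groups, and their summed TPM was 169, 172 and 159 with IL-1β against 90.0, 91.4 and 89.6 with the inhibitor. Exons of Tap1 overlap those of Psmb9 on the opposite strand over 212 bases, and the sources used here do not say whether reads were counted by strand.

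The heavy chain H2-K1 had 66.1, 66.5 and 60.2 TPM with IL-1β and 86.6, 96.3 and 94.6 TPM with the inhibitor. It rose by a log2 fold change of 0.55 ± 0.0452 (SE, edgeR adjusted p = 2.39e-14). H2-D1 had 125, 127 and 124 TPM against 158, 155 and 157 TPM, with a log2 fold change of 0.35 ± 0.0324 (SE, edgeR adjusted p = 3.56e-14). Class I genes are similar in sequence, so the division of reads among H2-K1, H2-D1 and their relatives is uncertain. H2-K1 and H2-D1 summed to 191, 194 and 185 TPM with IL-1β and to 245, 252 and 251 TPM with the inhibitor. Of their relatives, named after their values were seen, H2-T22 went from a mean of 42.1 to 22.8 TPM (log2 fold change −0.77, edgeR adjusted p = 9.97e-18) and H2-Q4 from 21.4 to 11.2 TPM (−0.91, edgeR adjusted p = 4.91e-15). The 13 listed class I heavy chain genes together, chosen after the values were seen, summed to 304, 299.8 and 293 TPM with IL-1β and to 318, 325 and 322 TPM with the inhibitor, a smaller difference than that of H2-K1 and H2-D1 alone. B2m, the light chain, had 814, 769.8 and 771 TPM against 702, 742 and 753 TPM. The treated libraries were all lower, but the log2 fold change was −0.08 ± 0.0322 (SE, edgeR adjusted p = 0.0241), and the call was lost without IL-1β replicate 1 (adjusted p = 0.200) and without inhibitor replicate 1 (adjusted p = 0.235). H2-K1 and H2-D1 together, per unit of B2m, stood at 0.234, 0.252 and 0.239 with IL-1β and 0.348, 0.339 and 0.334 with the inhibitor, with no overlap.

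**Figure D3:**
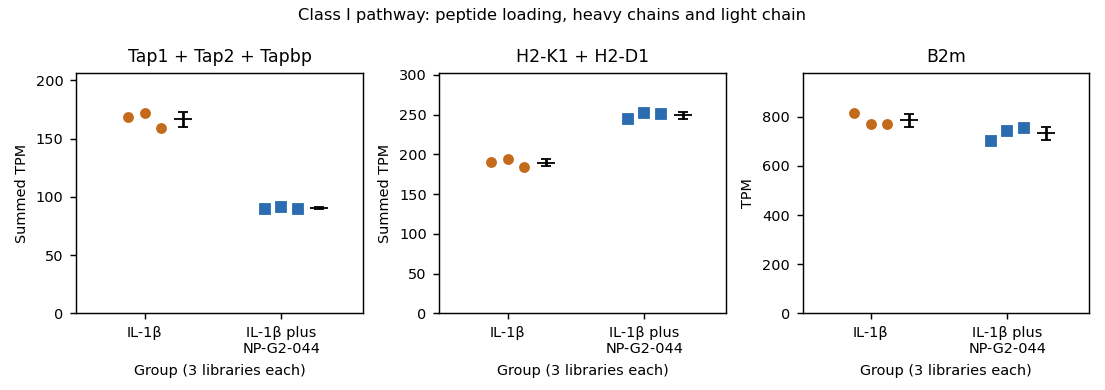
Summed TPM of Tap1, Tap2 and Tapbp, summed TPM of H2-K1 and H2-D1, and TPM of B2m, on linear axes from 0, with circles for the 3 IL-1β libraries, squares for the 3 IL-1β plus NP-G2-044 libraries and bars for the mean and SD. The loading genes drop from 159 to 172 TPM to 89.6 to 91.4 TPM, H2-K1 and H2-D1 rise from 185 to 194 TPM to 245 to 252 TPM, and B2m stays between 702 and 814 TPM in all 6 libraries.

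A wider set of 188 other genes of the same pathways, in 7 lists, was described in the same way. Of these, 160 had a row and 110 were tested, of which 28 rose and 65 fell at the adjusted p. Past both cutoffs, 6 rose and 28 fell, and the median log2 fold change was −0.37. At the adjusted p this is 84.5%, near the 80% of all tested genes, and past both cutoffs 30.9%, beside 16.6% of all tested genes. Of the 21 ligand genes Ifne had a row, with 1 read in each group, too few to compare, and the others have no value here.

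The interferon-γ GTPases were the list with the lowest median. All 7 tested genes of this list fell at the adjusted p, where 80% of all tested genes passed. Past both cutoffs were 4 of them (57.1%, beside 16.6% of all tested genes), and the median log2 fold change was −2.97. Iigp1, Gbp5 and Gbp6 passed the read filter through the IL-1β libraries alone, with at most 6 reads in any inhibitor-treated library. Gbp7, with 13, 18 and 8 reads in the inhibitor-treated libraries, would not have passed on those libraries alone. This holds for all 4 genes past both cutoffs. Such genes are tested only when high with IL-1β, so their fall, the count and the median are not independent of the filter. Iigp1, an immunity-related GTPase, had 11, 14 and 17 reads with IL-1β and 0 in each inhibitor-treated library, at least 14.7-fold lower with a floor of 3 reads over the group. With Iigp1 set at this bound the median of the list stayed at −2.97, which it had to, since the bound also lies below the median. Gbp5, Gbp7 and Gbp6, further guanylate-binding proteins, had log2 fold changes of −3.57, −3.06 and −2.97, from 38, 312 and 92 pooled reads with IL-1β to 3, 39 and 12 with the inhibitor.

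Of 21 other tested class I processing genes, 16 fell and 3 rose at the adjusted p (90.5%, beside 80% of all tested genes). Past both cutoffs, 10 fell and 1 rose (52.4%, beside 16.6%), and the median log2 fold change was −0.92. H2-M2, a non-classical class I gene, fell by 3.75 ± 0.369 (log2, SE, edgeR adjusted p = 2.56e-13), from 32, 33 and 42 reads to 1, 3 and 4. It passed the read filter through the IL-1β libraries alone. H2-T23, which encodes the non-classical molecule Qa-1, fell by 2.57 ± 0.207 (log2, SE, edgeR adjusted p = 2.31e-16). Psmb9, a subunit of the immunoproteasome, which cuts peptides for class I molecules, had 16, 18 and 16 reads with IL-1β and 4, 3 and 0 with the inhibitor. It fell by 2.84 on the log2 scale (edgeR adjusted p = 4.3e-07) and, like H2-M2, passed the filter through the IL-1β libraries alone. The gene that rose, Nlrc5, is an activator of class I transcription. It was named here after its values were seen, and its log2 fold change of 1.00 lies at the cutoff (edgeR adjusted p = 2.61e-11). On chromosome 17 (mm10), Psmb9, Tap1 and Tap2, which fell, lie between bases 34182030 and 34216321, and H2-K1 and H2-D1, which rose, lie on either side of them.

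Among 37 other tested genes induced by type I interferon, 20 fell and 9 rose at the adjusted p. That share of 78.4% is near the 80% of all tested genes. Past both cutoffs, 11 fell and 2 rose (35.1%, beside 16.6% of all tested genes). Ube2l6, the enzyme that conjugates Isg15, went from 11.5 ± 0.326 to 0.920 ± 0.312 TPM (SD, n = 3 each) and Uba7, the enzyme that activates it, from 2.56 ± 0.101 to 0.353 ± 0.106 TPM, with log2 fold changes of −3.60 and −2.81 (edgeR adjusted p = 5.31e-24 and 3.62e-17). Herc6, the ligase of the same reaction in mice and named after its values were seen, rose by a log2 fold change of 0.26 (edgeR adjusted p = 0.000568). Lgals9, the lectin galectin-9, and Slfn9, of the Schlafen family, had log2 fold changes of −3.60 and −2.50 (edgeR adjusted p = 2.34e-16 and 2.23e-31). The value of Lgals9 rests on 69, 58 and 50 reads with IL-1β and 7, 6 and 2 with the inhibitor. With the inhibitor Ube2l6 had 7, 14 and 14 reads and Uba7 had 12, 8 and 15. Lgals9, Ube2l6 and Uba7 would not have passed the read filter on the inhibitor-treated libraries alone. Their falls, and the count past both cutoffs, are therefore not independent of the filter.

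The remaining lists showed fewer large changes. Their shares are given in brackets, to be set beside 80% of all tested genes at the adjusted p and 16.6% past both cutoffs. Of 14 other tested receptors, kinases and feedback genes, 9 fell and 4 rose at the adjusted p (92.9%), and 2 fell past both cutoffs (14.3%). Of 20 tested genes of nucleic acid sensing, 9 fell and 8 rose at the adjusted p (85%), and 2 rose past both cutoffs (10%). The larger of these rises was that of Mndal, a member of the family of interferon-inducible HIN proteins, with 17, 9 and 12 reads against 78, 69 and 77 and a log2 fold change of 2.48 ± 0.216 (SE, edgeR adjusted p = 4.46e-15). Mndal would not have passed the read filter on the IL-1β libraries alone, so its rise is not independent of the filter. Of 11 tested class II genes, 4 fell and 4 rose at the adjusted p (72.7%). Past both cutoffs, 1 fell and 1 rose (18.2%), and the median log2 fold change was −0.10. Cd68 also differed between the groups, as given above with Cd14 moving the other way and Ptprc at 0 in every library, and the part of these markers in the values above was not tested.

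**Figure D4:**
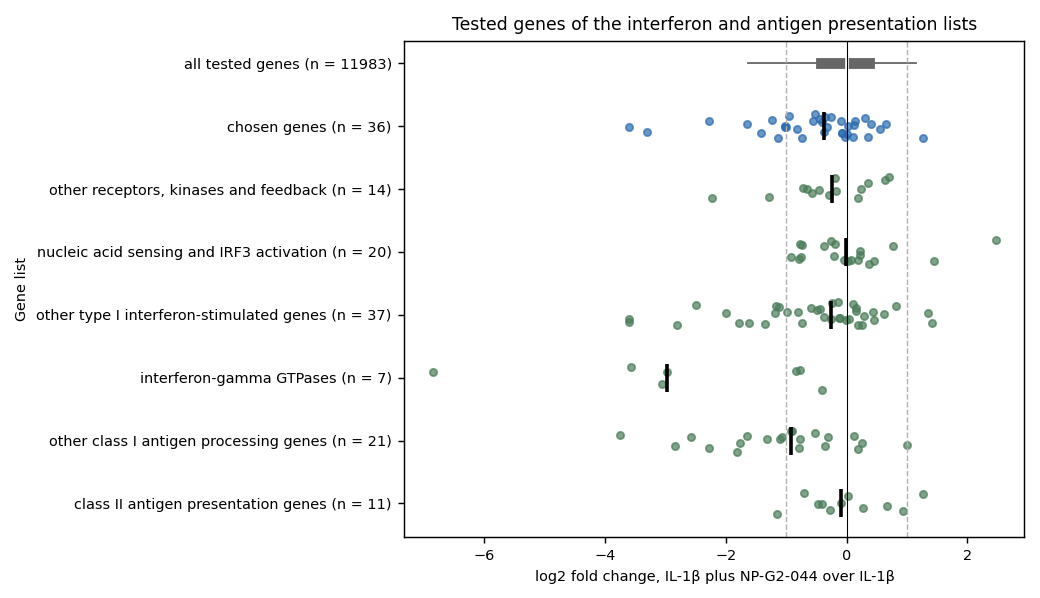
Log2 fold change of each tested gene, inhibitor group over IL-1β group, in the chosen genes and in 6 wider lists, with points for genes, black bars for medians and dashed lines at −1 and 1; the grey bar for all tested genes spans the quartiles and the thin line reaches from percentile 5 to percentile 95. The 7 interferon-γ GTPases all lie left of 0 around a median of −2.97, the class I processing genes have a median of −0.92, and the sensing and class II lists have medians near 0.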

How the data were processed

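RNA of 6 libraries, 3 per group, was quantified by BGI according to the study's methods, with cutadapt, HISAT2 2.0 and StringTie on mm10 per the submitters' processing notes; the annotation was not stated. The authors deposited an expected count (an estimated count per gene, 10.2% to 11.1% of them not whole), TPM and FPKM for each gene and library. The deposited TPM served for levels, and the deposited FPKM and the authors' group averages were not used.

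Expected counts were rounded, filtered with filterByExpr (minimum count 10), scaled by TMM and compared with edgeR 4.0.16 (glmQLFit, robust, glmQLFTest, R 4.3.3), 3 libraries against 3 without covariates, with Benjamini-Hochberg adjustment over 11983 genes. The paper's cutoffs were used, an adjusted p under 0.05 and an absolute log2 fold change over 1. A gene with few reads in either group could pass the filter through the other group alone, and its direction is then not independent of the filter. The steps were tested on simulated data. The genes and lists were chosen with earlier results of these data known. Values per library are printed for genes past both cutoffs, for the largest change in each role and for the 5 highest by TPM; of the wider lists, 12 genes past both cutoffs are named by size of change. TMM factors were 0.997 to 1.002. Differences within a group were 1.54 to 2.39 times counting noise, so that no library was a copy of another. Promoters were those of RefSeq on GRCm38.p6, the assembly of mm10, and exon overlaps of at least 50 bases those of GENCODE vM21. Alternatives were DESeq2 1.42.0, limma 3.58.1 with voom or on log2(TPM + 1) and log2(TPM + 0.1), other size factors, other filters, a test against a 2-fold change, a replicate block and leaving out each library.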

Additional observations from a re-analysis of the deposited data

How the results depend on the processing

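Of 570 refits of single genes, 531 stayed on the same side of the cutoff, 35 lost the call and 4 gained one. The sign turned in 7 refits, 3 of Ifnar1 and 4 of Tyk2 (lowest value −0.01 for both), none past the cutoff, and no called value changed sign. Of the lost calls, 23 came from testing against a 2-fold change, which left 0 genes of the list higher and 6 lower (by the adjusted p and past both cutoffs alike; Gbp2, Gbp3, Parp14, Ifit2, Irf1 and Ifih1). Without the low-count filter 4 genes of the list rose past both cutoffs (Bst2, Ifit1, Rsad2 and Ifi44) and the median was −0.32. With 10 CPM required in 3 libraries, fewer genes were tested; 1164 genes passed both cutoffs in place of 1987, 0 genes of the list rose since Bst2 was not tested, and 3 of the wider lists rose and 12 fell. On log2(TPM + 1), which compresses low genes, 1316 genes passed both cutoffs, and 7 genes of the list fell past both in place of 10. Leaving out each library in turn gave 2025 to 2071 genes past both cutoffs, a median of −0.41 to −0.33, 8 to 9 genes of the list higher and 19 to 20 lower at the adjusted p, 1 higher and 8 to 10 lower past both cutoffs, and 5 to 7 higher and 28 to 30 lower in the wider lists. Same-numbered libraries did not deviate together (correlations of −0.09, −0.02 and 0.03), so the numbers do not pair them. A replicate block gave 1984 genes past both cutoffs and the same counts for the list (9 and 20 at the adjusted p, 1 and 10 past both) and for the wider lists (6 and 28). Depth limits the 7 genes below the filter, whose totals per group were at most 29 reads.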
